A study of Mus musculus with 12 samples.

Results

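The 44 protein-coding genes whose symbols have the form of a collagen chain (Col, a number, a, a number) were taken from a table of 54532 genes measured in C2C12 cells, a mouse myoblast line derived from skeletal muscle. The cells had been transfected with a control siRNA (siCONTROL), with siRNA against Keap1 (siKEAP1), with siRNA against Ccnf (siCCNF) or with both (siKEAP1/siCCNF), and each group held 3 libraries. Per the labels, siRNA was used at 30 nM in medium with 5% serum, and RNA was collected 48 h later and sequenced after poly(A) selection. KEAP1 is the adaptor that brings the transcription factor NRF2 to a ubiquitin ligase, and cyclin F, the product of Ccnf, is the substrate receptor of another ubiquitin ligase. The labels call the 3 libraries of a group biological replicates without saying what separates them, so p-values measure the spread between these libraries, which may be technical.

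Collagens are trimeric proteins of the extracellular matrix whose chains wind around each other in a triple helix of repeated glycine triplets. Fibrillar collagens assemble into the banded fibrils that give connective tissue its strength, and type IV collagen forms the sheet-like network of basement membranes, which surround every muscle fibre. The remaining types decorate fibrils, form beaded filaments or other networks, or are anchored in the plasma membrane. The 44 genes were sorted on these roles into 11 fibrillar collagens (types I, II, III, V, XI, XXIV and XXVII), 8 basement membrane collagens (types IV, XV and XVIII) and 25 others. All 11 fibrillar genes, 6 of the 8 basement membrane genes and 17 of the 25 others had enough counts to be tested, 34 of 44 in all. Levels are given in FPKM, a count scaled by gene length and library size, which allows genes to be set side by side. Differences are log2 fold changes ± SE from edgeR's quasi-likelihood test, and a gene was called at an adjusted p under 0.05 over the 15122 genes tested.

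Keap1 stood at 14.4% of its siCONTROL level in siKEAP1 libraries and at 27.5% in siKEAP1/siCCNF libraries, and Ccnf at 25.3% in siCCNF, 30.2% in siKEAP1/siCCNF and 73.2% in siKEAP1 libraries. Library totals lay between 18464209 and 37743198 counts per library. In siCONTROL replicate 1 and siKEAP1/siCCNF replicate 3, the deviation of a gene from its group mean fell with the gene's length (Pearson's r across genes of -0.305 and -0.276, against -0.0944 to 0.206 in the other libraries). Both Col12a1 and Col6a3, which are long collagen genes, were low in siCONTROL replicate 1. Collagens did not all follow length there. Col27a1 (13022 bases) stood at 1.28, 1.34 and 1.39 FPKM in the siCONTROL libraries. The shorter Col4a1 (7464 bases) stood at 48.5, 61.6 and 63.8 FPKM.

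Collagen mRNA was abundant in these myoblasts. The summed level of all 44 genes was 1567, 1813 and 1824 FPKM in siCONTROL libraries, 1030.0, 1005 and 1025 FPKM in siKEAP1, 2556, 2387 and 2441 FPKM in siCCNF, and 1828, 1698 and 1698 FPKM in siKEAP1/siCCNF libraries. The siKEAP1 libraries were the lowest, the siCCNF libraries the highest, and the siKEAP1/siCCNF libraries overlapped siCONTROL. As a share of all counts, collagens took 1.53% ± 0.147 in siCONTROL, 0.863% ± 0.0193 in siKEAP1, 2.25% ± 0.0426 in siCCNF and 1.6% ± 0.0837 in siKEAP1/siCCNF cells (SD, n = 3). Since whole cultures were sequenced, fewer cells that make a transcript and less of it per cell cannot be told apart.

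The classes did not follow this total alike. Fibrillar collagens summed to 1004 ± 71.4 FPKM in siCONTROL and 481 ± 10.5 FPKM in KEAP1-depleted cells, 48.0% of the control level, while basement membrane collagens summed to 163 ± 18.7 FPKM and 238 ± 8.28 FPKM, 147% of the control level. The highest genes of the basement membrane class did not move alike in this comparison. Col18a1 went from 61.6 ± 5.24 to 146 ± 4.13 FPKM, Col4a1 from 58 ± 8.26 to 46.7 ± 2.13 FPKM and Col4a2 from 37 ± 4.35 to 37.3 ± 2.66 FPKM. The other collagens summed to 569 ± 55.6 FPKM in siCONTROL and 300.1 ± 10.9 FPKM in KEAP1-depleted cells, 52.8% of the control level. In CCNF-depleted cells the sums stood at 155% of control for fibrillar and 163% for basement membrane collagens, with every library above the control libraries. The other collagens stood at 113%, and their libraries overlapped siCONTROL. With both siRNAs the sums stood at 102%, 155% and 82.5% of control. Basement membrane collagens went from 9.35% ± 0.318 of collagen FPKM in siCONTROL to 23.4% ± 1.09 in siKEAP1, 10.8% ± 0.735 in siCCNF and 14.5% ± 0.79 in siKEAP1/siCCNF libraries.

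**Figure D1:**
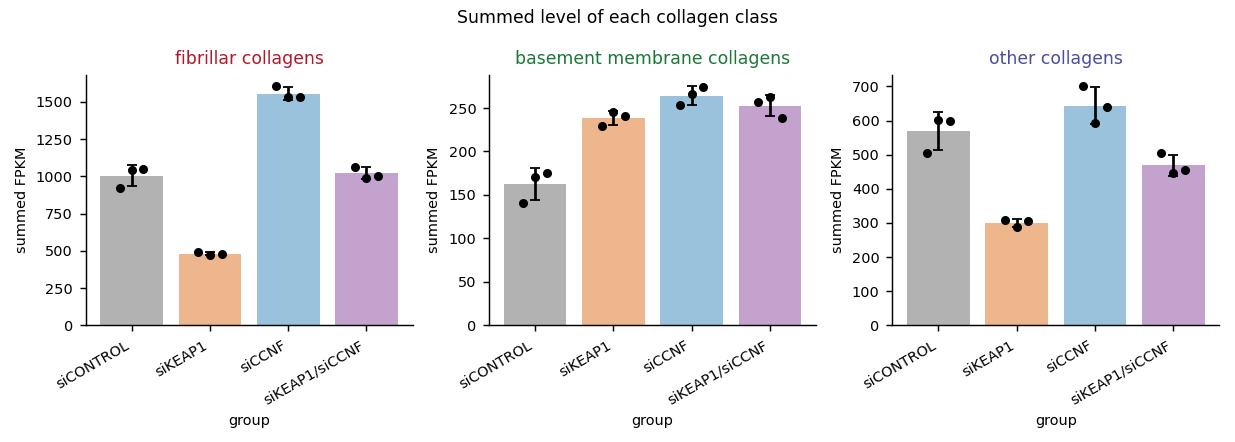
Summed FPKM (vertical axes, from 0) of fibrillar, basement membrane and other collagen genes in each group; bars are means of 3 libraries, error bars are SD and points are libraries. Fibrillar and other collagens were lowest with siKEAP1 (481 ± 10.5 and 300.1 ± 10.9 FPKM), whereas basement membrane collagens were lowest in siCONTROL (163 ± 18.7 FPKM).

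A few chains made up most of this message. Col3a1 led in every group, with 28.0% of collagen FPKM in siCONTROL, 24.7% in siKEAP1, 26.7% in siCCNF and 25.9% in siKEAP1/siCCNF cells, and the 10 highest genes together held between 87.7% and 89.8%. Col6a1 and Col1a2 followed in siCONTROL. In siKEAP1 cells Col18a1, which ranked ninth in siCONTROL, took the third place behind Col3a1 and Col6a1. Col1a2 and Col5a2 held the places after Col3a1 in both groups with siCCNF. The gene length in the table is 12426 bases for Col1a2 against 5348 bases for its longest coding transcript in GENCODE, so FPKM sets this gene low relative to chains whose lengths agree more closely, such as Col1a1 with 6563 and 5930 bases.

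**Figure D2:**
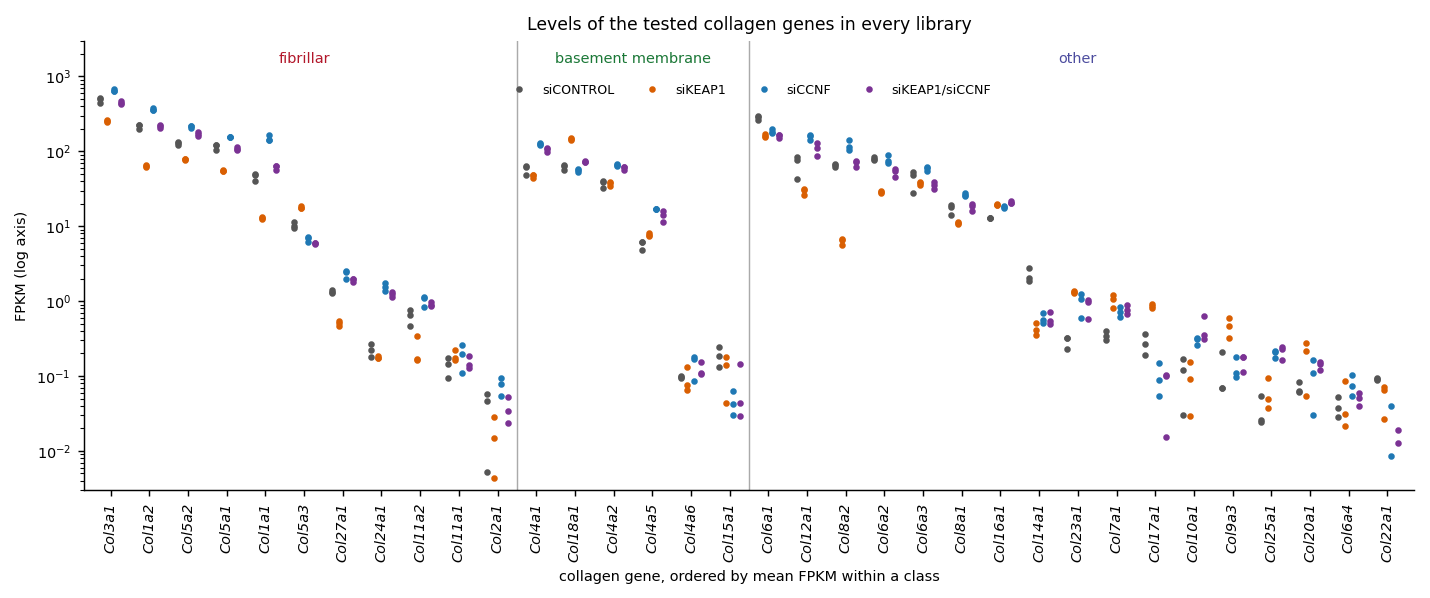
FPKM (vertical log axis) of the 34 tested collagen genes in each of the 12 libraries, ordered by mean level within a class, with colours for the 4 siRNA groups; a library at 0 is not drawn. Levels span from below 0.1 FPKM (Col22a1, Col2a1) to 658 FPKM (Col3a1, siCCNF mean), and the siKEAP1 points lie apart below the others for Col1a2, Col1a1 and Col8a2.

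After depletion of KEAP1, 22 of the 34 tested collagens were called, 64.7% against a background of 40.6% of all genes tested. Of these, 14 were lower (background 20.2%) and 8 were higher (background 20.4%), and 14 of the 22 differed by more than 2-fold (background 11.5%). Fibrillar collagens held 7 lower and 1 higher, with a median log2 fold change of -1.07. Basement membrane collagens held 1 lower and 2 higher (median -0.05), and the others 6 lower and 5 higher (median -0.20). The median of all genes tested was -0.01.

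After depletion of CCNF, 26 of the 34 were called (background 47.9%), 20 of them higher (background 22.5%) and 6 lower (background 25.5%), and 13 differed by more than 2-fold (background 11.4%). Among fibrillar collagens 8 were higher and 1 was lower (median 0.73). Basement membrane collagens held 3 higher and 1 lower (median 0.72), and the others 9 higher and 4 lower (median 0.61), beside a median of 0.01 over all genes.

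With both siRNAs, 20 of the 34 differed from siCONTROL (background 44.2%), 14 higher (background 20.6%) and 6 lower (background 23.6%), of which 9 by more than 2-fold (background 10.3%). The medians were 0.15 for fibrillar collagens (4 higher, 1 lower), 0.51 for basement membrane collagens (4 higher, none lower) and 0.32 for the others (6 higher, 5 lower). These comparisons share the siCONTROL libraries, so agreement between them is not independent. Among the 25 collagens with at least 10 counts in every library, 20 were called after siKEAP1 (background among all genes with that many counts 42.9%), 21 after siCCNF (background 52.3%) and 16 with both siRNAs (background 48.2%). Leaving out siCONTROL replicate 1 turned the median of the other collagens after siKEAP1 to 0.30, and leaving out siKEAP1 replicate 1 turned it to 0.15.

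**Figure D3:**
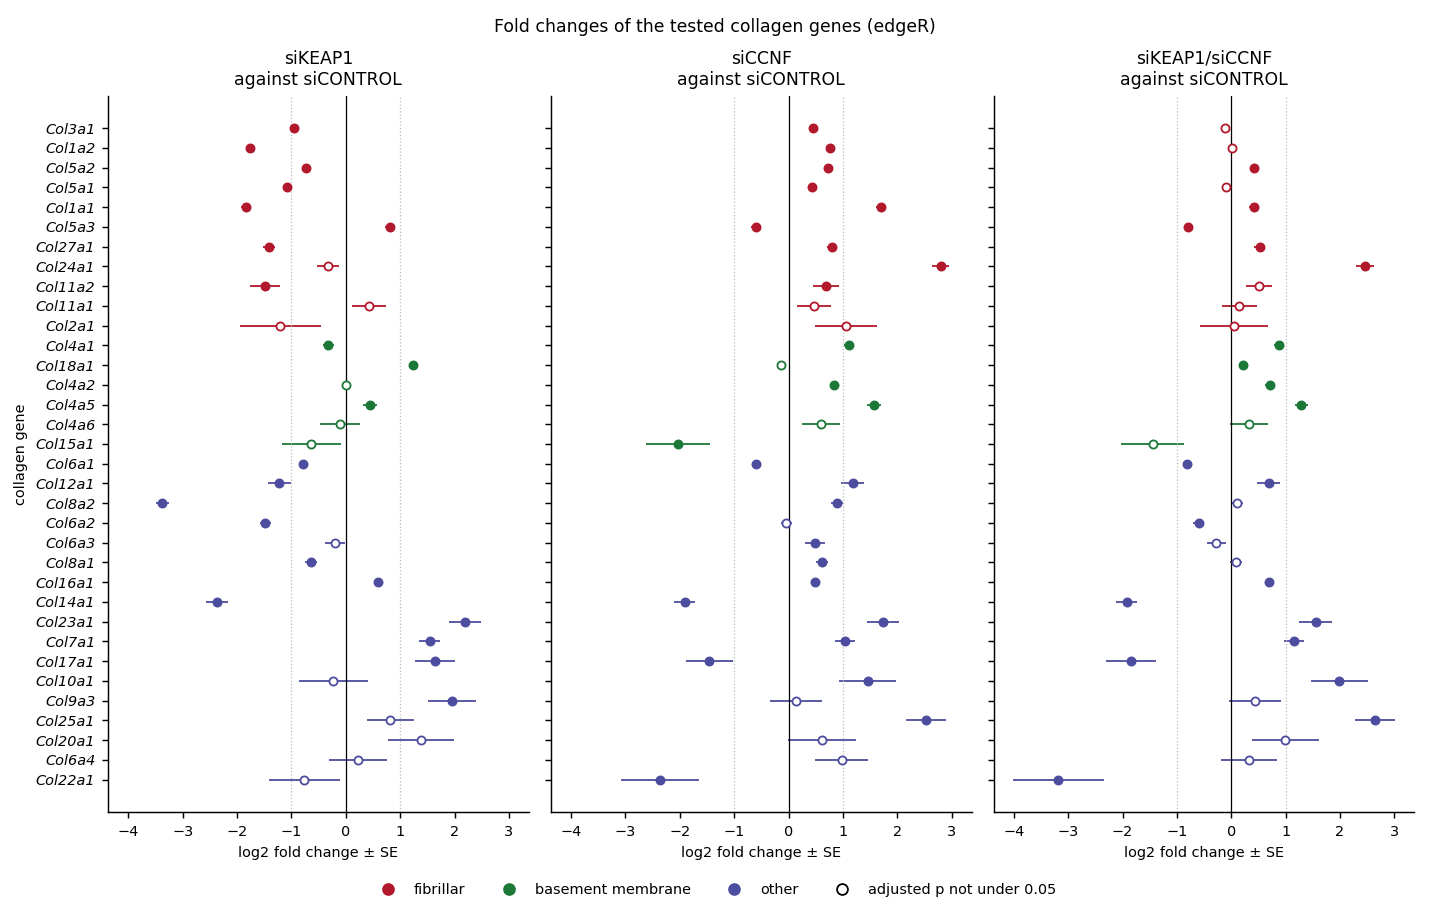
Log2 fold change ± SE (horizontal axes) of the 34 tested collagen genes in each depletion against siCONTROL, by edgeR, coloured by class; filled symbols have an adjusted p under 0.05 and dotted lines mark 2-fold. After siKEAP1 most fibrillar genes lie left of 0 (median -1.07), after siCCNF most lie right of it (median 0.73), and with both siRNAs they lie around 0.15.

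Type I collagen, the main component of tendon, bone and scar, is built from the chains of Col1a1 and Col1a2. Col1a1 (chromosome 11) stood at 40.1, 48.2 and 49.6 FPKM in siCONTROL and at 13.2, 13 and 12.6 FPKM in siKEAP1 libraries. With siCCNF it stood at 163, 142 and 142 FPKM, and with both siRNAs at 63.5, 57 and 63.1 FPKM. No pair of these groups overlapped, and the siCCNF level was more than an order of magnitude above the siKEAP1 level. The log2 fold change was -1.84 ± 0.09 after siKEAP1 (edgeR adjusted p 6.37e-09), 1.70 ± 0.09 after siCCNF (adjusted p 1.4e-08) and 0.41 ± 0.09 with both (adjusted p 0.00158).

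Col1a2 (chromosome 6) stood at 200.2, 222 and 225 FPKM in siCONTROL libraries and at 66.4, 61.6 and 63.8 FPKM in siKEAP1 libraries. In CCNF-depleted cells it reached 381, 358 and 359.7 FPKM, and with both siRNAs 225, 206 and 220.2 FPKM. The siKEAP1/siCCNF libraries overlapped siCONTROL, whereas both single depletions lay apart from it on opposite sides. Its log2 fold change was -1.76 ± 0.07 after siKEAP1 (edgeR adjusted p 8.75e-10), 0.77 ± 0.07 after siCCNF (adjusted p 8.64e-07) and 0.01 ± 0.06 with both (adjusted p 0.936).

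The windows around the annotated starts of Col1a2 and of Col8a2, the gene with the largest fall after siKEAP1, are shown for the letters around the start of a fibrillar and a non-fibrillar collagen whose level moved far. They are RefSeq promoter windows on GRCm38.p6, from 250 bases before to 50 bases after the start, at chr6:4505368-4505667 (plus strand) for Col1a2 and chr4:126286544-126286843 (plus strand) for Col8a2. Capitals mark CCAAT or its reverse complement ATTGG, searched on both strands. The Col1a2 window holds 2 matches and the Col8a2 window none.
Col1a2: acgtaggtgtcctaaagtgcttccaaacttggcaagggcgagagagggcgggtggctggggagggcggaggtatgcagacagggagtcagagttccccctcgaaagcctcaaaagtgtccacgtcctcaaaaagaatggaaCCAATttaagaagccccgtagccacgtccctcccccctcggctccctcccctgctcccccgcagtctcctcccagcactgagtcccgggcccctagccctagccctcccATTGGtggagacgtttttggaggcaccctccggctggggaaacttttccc
Col8a2: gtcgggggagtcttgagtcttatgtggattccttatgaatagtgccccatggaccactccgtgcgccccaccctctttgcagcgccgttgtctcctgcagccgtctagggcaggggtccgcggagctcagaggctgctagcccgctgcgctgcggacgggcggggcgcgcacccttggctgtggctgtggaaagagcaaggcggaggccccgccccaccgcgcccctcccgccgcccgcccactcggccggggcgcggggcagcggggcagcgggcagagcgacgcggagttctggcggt

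A window was found for 35 of the 44 genes (38 windows, since some genes have several starts). CCAAT or its reverse complement stood in 34.2% of these windows and in 37.4% of the 32851 windows of all genes. GGGCGG, the letters of a GC box, stood in 60.5% against 35.7%, TATAA in 18.4% against 24.9%, and TGACNNNGC, the core of the antioxidant response element to which NRF2 binds with small MAF proteins, in 18.4% against 12.4%. All 4 were searched on both strands, and a match describes letters only. The 7 genes with TGACNNNGC were Col13a1, Col24a1, Col4a2, Col6a2, Col6a5, Col7a1 and Col9a2. Col12a1, Col14a1, Col1a1, Col22a1, Col26a1, Col2a1, Col4a3, Col5a2 and Col9a3 had no window and were not searched.

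Col3a1 (chromosome 1) encodes type III collagen, which joins type I in the fibrils of distensible tissues. It stood at 441, 505 and 509.7 FPKM in siCONTROL and 261, 244 and 251 FPKM in siKEAP1 libraries, a fall by 0.95 on the log2 scale (SE 0.07, edgeR adjusted p 2.27e-07). In siCCNF libraries it reached 686, 646 and 641 FPKM (log2 fold change 0.44 ± 0.07, adjusted p 0.000156). With both siRNAs it lay at 471, 435 and 446 FPKM, overlapping siCONTROL (-0.11 ± 0.07, adjusted p 0.223). The siCCNF libraries were higher than all others and the siKEAP1 libraries lower than all others.

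Type V collagen initiates fibrils and limits their diameter. Col5a2 stood at 123, 131 and 130.2 FPKM in siCONTROL, 77.9, 76.5 and 79.5 FPKM in siKEAP1, 203, 217 and 217 FPKM in siCCNF and 183, 173 and 159 FPKM in siKEAP1/siCCNF libraries, with no overlap between any of the groups. Its log2 fold changes against siCONTROL were -0.72 ± 0.06, 0.73 ± 0.06 and 0.42 ± 0.06 in that order (edgeR adjusted p 1.52e-06, 1.22e-06 and 0.000164).

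Col5a1 stood at 103, 122 and 123 FPKM in siCONTROL, 55.3, 56.3 and 54.6 FPKM in siKEAP1, 157, 157 and 158 FPKM in siCCNF and 114, 109 and 105 FPKM in siKEAP1/siCCNF libraries. Only the siKEAP1/siCCNF libraries overlapped siCONTROL, and the log2 fold changes were -1.07 ± 0.07, 0.44 ± 0.07 and -0.09 ± 0.07 (edgeR adjusted p 1.03e-07, 0.000197 and 0.32). Col5a3, the remaining chain of this type, went the other way, from 10.3 ± 1.01 FPKM in siCONTROL to 18.1 ± 0.631 FPKM in siKEAP1, 6.75 ± 0.494 FPKM in siCCNF and 5.95 ± 0.143 FPKM in siKEAP1/siCCNF cells (SD, n = 3). It was the only fibrillar collagen called higher after siKEAP1 (0.80 ± 0.08, edgeR adjusted p 2.96e-06) and the only one called lower after siCCNF (-0.61 ± 0.08, adjusted p 3.17e-05).

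Col24a1, a minor fibrillar collagen described in bone, showed the largest rise of any collagen after siCCNF. It stood at 0.181, 0.219 and 0.269 FPKM in siCONTROL and 0.176, 0.175 and 0.184 FPKM in siKEAP1 libraries, which overlapped. In siCCNF and siKEAP1/siCCNF libraries it stood at 1.53, 1.35 and 1.76 FPKM and 1.24, 1.3 and 1.13 FPKM, above every other library. The log2 fold change was 2.80 ± 0.16 after siCCNF (edgeR adjusted p 3.08e-08) and 2.46 ± 0.16 with both siRNAs (adjusted p 1.14e-07).

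The remaining 4 fibrillar genes were at low levels. Col27a1 went from 1.34 ± 0.0527 FPKM in siCONTROL to 0.504 ± 0.0359 FPKM with siKEAP1 and 2.32 ± 0.29 FPKM with siCCNF (log2 fold changes -1.41 and 0.80, both called by edgeR). Col11a2, a chain of the cartilage counterpart of type V, stood at 0.63 ± 0.153, 0.227 ± 0.103 and 1.02 ± 0.151 FPKM in the same groups (-1.49 and 0.69, both called). Col11a1, with 0.138 to 0.187 FPKM as group means, and Col2a1, the cartilage collagen, with 0.0159 to 0.0756 FPKM, were not called in any comparison with siCONTROL.

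Col4a1 and Col4a2 encode the chains of the type IV network found in all basement membranes. Col4a1 stood at 48.5, 61.6 and 63.8 FPKM in siCONTROL and 44.3, 47.7 and 48.2 FPKM in siKEAP1 libraries, the lowest control library lying just above the highest siKEAP1 library. With siCCNF it stood at 119.9, 126 and 129.5 FPKM and with both siRNAs at 109, 112 and 98.5 FPKM, above all libraries without siCCNF. The log2 fold changes were -0.32 ± 0.09 after siKEAP1 (edgeR adjusted p 0.0164), 1.12 ± 0.10 after siCCNF (adjusted p 9.21e-07) and 0.88 ± 0.10 with both (adjusted p 8.5e-06). The small fall after siKEAP1 was no longer called without siCONTROL replicate 2 (-0.28), siCONTROL replicate 3 (-0.25) or siKEAP1 replicate 1 (-0.29).

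Col4a2 rose after siCCNF (0.84 ± 0.09, edgeR adjusted p 4.52e-06) and with both siRNAs (0.70 ± 0.09, adjusted p 2.51e-05), from 37 ± 4.35 FPKM to 66.2 ± 2.44 and 60.2 ± 2.76 FPKM (SD, n = 3). After siKEAP1 its level was 37.3 ± 2.66 FPKM, with a log2 fold change of 0.01 ± 0.09 whose 95% interval ran from -0.16 to 0.18. Both genes lie head to head on chromosome 8 and their annotated starts overlap by 22 bases, on opposite strands. Their promoter windows, shown because the genes share this start region, overlap by 78 bases, at chr8:11312777-11313076 (GRCm38.p6, minus strand) for Col4a1 and chr8:11312555-11312854 (plus strand) for Col4a2. Capitals again mark CCAAT or ATTGG, with 1 match in each window.
Col4a1: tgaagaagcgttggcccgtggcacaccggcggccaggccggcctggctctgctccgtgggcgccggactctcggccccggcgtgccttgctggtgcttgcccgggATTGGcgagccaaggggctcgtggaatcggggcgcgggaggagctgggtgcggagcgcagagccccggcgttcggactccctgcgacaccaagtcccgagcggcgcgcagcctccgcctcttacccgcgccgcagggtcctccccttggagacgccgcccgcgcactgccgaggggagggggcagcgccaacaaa
Col4a2: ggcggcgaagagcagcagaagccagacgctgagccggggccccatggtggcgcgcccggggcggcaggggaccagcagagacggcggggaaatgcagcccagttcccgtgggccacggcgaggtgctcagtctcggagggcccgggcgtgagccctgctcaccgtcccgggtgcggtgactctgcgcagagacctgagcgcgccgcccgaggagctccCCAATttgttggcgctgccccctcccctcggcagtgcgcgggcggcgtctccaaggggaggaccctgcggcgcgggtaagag

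Col18a1 encodes type XVIII collagen, a heparan sulfate proteoglycan of basement membranes whose C-terminal fragment is endostatin. It stood at 55.6, 63.7 and 65.5 FPKM in siCONTROL and 142, 151 and 146 FPKM in siKEAP1 libraries, and the siKEAP1 libraries exceeded all others. With siCCNF it stood at 52.2, 56.6 and 58.3 FPKM, overlapping siCONTROL, and with both siRNAs at 71.1, 73.5 and 71.2 FPKM. The rise after siKEAP1 (1.24 ± 0.07, edgeR adjusted p 3.18e-08) was the largest among basement membrane collagens. The log2 fold change was -0.14 ± 0.07 after siCCNF (adjusted p 0.115) and 0.22 ± 0.07 with both (adjusted p 0.0216). The latter was not called without siCONTROL replicate 1 (0.15) or siKEAP1/siCCNF replicate 2 (0.20). In siKEAP1 cells, 146 ± 4.13 of the 238 ± 8.28 FPKM of the basement membrane class came from this gene, against 61.6 ± 5.24 of 163 ± 18.7 FPKM in siCONTROL.

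Col4a5, a chain of the kidney and muscle type IV networks, rose in all 3 depletions, from 5.71 ± 0.834 FPKM to 7.79 ± 0.371 FPKM with siKEAP1, 17 ± 0.0677 FPKM with siCCNF and 13.9 ± 2.37 FPKM with both (log2 fold changes 0.44, 1.57 and 1.29, all called by edgeR). Col15a1, a relative of Col18a1 in muscle basement membranes, was low throughout, with counts of 19, 22 and 33 in siCONTROL, 6, 22 and 26 in siKEAP1, 14, 5 and 10 in siCCNF and 7, 6 and 21 in siKEAP1/siCCNF libraries. It fell after siCCNF by 2.03 on the log2 scale (SE 0.59, edgeR adjusted p 0.0119), and with both siRNAs replicate 3 alone lay within the control range (-1.45 ± 0.58, adjusted p 0.057). Without that library the value was -2.39 and was called. Col4a6, with 13 to 51 counts per library, was not called against siCONTROL.

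Type VI collagen forms the beaded microfilaments that link muscle fibres to their matrix, and defects in its chains cause muscular dystrophies. Col6a1 stood at 260.2, 294 and 285 FPKM in siCONTROL, 171, 157 and 163 FPKM in siKEAP1, 199, 174 and 179.8 FPKM in siCCNF and 163, 149 and 167 FPKM in siKEAP1/siCCNF libraries. Every library with a depletion lay below every control library, and the siKEAP1 and siKEAP1/siCCNF libraries overlapped each other. Its log2 fold changes were -0.78 ± 0.07, -0.60 ± 0.07 and -0.81 ± 0.07 (edgeR adjusted p 2.18e-06, 1.81e-05 and 1.68e-06). Col6a2 went from 79.8 ± 3.75 FPKM to 28.8 ± 1.19 FPKM with siKEAP1 and 52.7 ± 6.66 FPKM with both, both called (-1.48 and -0.60), and stood at 77.6 ± 9.34 FPKM with siCCNF (-0.04, not called). Col6a3 stood at 27.5, 48 and 52.2 FPKM in siCONTROL, where replicate 1 was lower than the rest, and at 37.3 ± 1.71, 59.5 ± 3.75 and 35.2 ± 4.25 FPKM with siKEAP1, siCCNF and both. It was called higher after siCCNF (0.49 ± 0.18, edgeR adjusted p 0.0373). Col6a4 had at most 31 counts and was not called.

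Col12a1 and Col14a1 belong to the fibril-associated collagens with interrupted triple helices, which bind to the surface of type I fibrils. Col12a1 stood at 42.8, 76.3 and 85.3 FPKM in siCONTROL and 30.7, 25.8 and 31.6 FPKM in siKEAP1 libraries. With siCCNF it stood at 158, 142 and 163 FPKM and with both siRNAs at 131, 112 and 86.2 FPKM. The spread was wide, with siCONTROL replicate 1 and siKEAP1/siCCNF replicate 3 below the rest of their groups, yet no depletion group overlapped siCONTROL. Its log2 fold changes were -1.22 ± 0.21, 1.18 ± 0.21 and 0.69 ± 0.21 (edgeR adjusted p 0.00044, 0.000462 and 0.0171). The last was not called without siKEAP1/siCCNF replicate 1 (0.54) or when only the compared groups were fitted (0.69).

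Col14a1 stood at 1.83, 2.75 and 2.03 FPKM in siCONTROL and 0.515, 0.357 and 0.418 FPKM in siKEAP1 libraries. In siCCNF libraries it was 0.684, 0.51 and 0.556 FPKM and with both siRNAs 0.708, 0.5 and 0.537 FPKM. All 9 depleted libraries lay below all 3 control libraries and overlapped among themselves. It was the only collagen to fall past 2-fold in all 3 depletions, with log2 fold changes of -2.37 ± 0.20, -1.91 ± 0.19 and -1.92 ± 0.19 (edgeR adjusted p 1.02e-06, 3.46e-06 and 4.26e-06).

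Col16a1, another fibril-associated collagen, rose in all 3 depletions, from 12.9 ± 0.117 FPKM to 19.4 ± 0.317, 18.1 ± 0.726 and 20.8 ± 0.921 FPKM (0.59, 0.49 and 0.69, all called by edgeR). Col22a1, which marks the junction of muscle and tendon, had counts of 19, 16 and 17 in siCONTROL, 13, 6 and 15 in siKEAP1, 13, 0 and 3 in siCCNF and 3, 0 and 4 in siKEAP1/siCCNF libraries. Every depleted library had fewer counts than every control library. Its log2 fold change was -2.37 ± 0.73 after siCCNF (edgeR adjusted p 0.0164) and -3.18 ± 0.84 with both (adjusted p 0.00755), which rests on few counts, and was not called without siCCNF replicate 3 in the former (-2.01). Col9a3, a chain of cartilage type IX, had counts of 6, 5 and 17 in siCONTROL and 49, 45 and 28 in siKEAP1 libraries, and 24, 11 and 14 with siCCNF and 11, 23 and 16 with both. Only its rise after siKEAP1 was called (1.95 ± 0.44, edgeR adjusted p 0.00296). Col20a1 was not called, and its counts (4 to 35) share their position with an overlapping transcript that has more.

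Type VIII collagen forms a hexagonal lattice in vessel walls and under the corneal endothelium. Col8a2 stood at 68, 65.2 and 61.1 FPKM in siCONTROL and only 6.5, 5.6 and 6.72 FPKM in siKEAP1 libraries. With siCCNF it stood at 143, 104 and 113 FPKM, and with both siRNAs at 73.3, 62.6 and 72.1 FPKM. The siKEAP1 libraries lay about an order of magnitude below all others, and the siKEAP1/siCCNF libraries overlapped siCONTROL. The log2 fold change of -3.37 ± 0.12 after siKEAP1 (edgeR adjusted p 5.68e-10) was the largest of any collagen, beside 0.89 ± 0.11 after siCCNF (adjusted p 2.17e-05) and 0.10 ± 0.11 with both (adjusted p 0.502). Its partner Col8a1 went from 17.1 ± 2.8 FPKM to 11 ± 0.359 FPKM with siKEAP1 and 26.2 ± 1.09 FPKM with siCCNF (-0.64 and 0.61, both called), and stood at 18.3 ± 2.13 FPKM with both (0.09, not called).

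Of the collagens anchored in the plasma membrane, Col23a1 rose in all 3 depletions. It had counts of 30, 34 and 39 in siCONTROL, 161, 189 and 179 in siKEAP1, 250, 88 and 229 in siCCNF and 152, 107 and 127 in siKEAP1/siCCNF libraries. All depleted libraries lay above the control libraries, with replicate 2 of both siCCNF-treated groups below its companions in FPKM. Its log2 fold changes were 2.19 ± 0.30, 1.74 ± 0.30 and 1.55 ± 0.30 (edgeR adjusted p 5.99e-05, 0.000319 and 0.000968). Col17a1, which anchors epithelial cells to the basement membrane at hemidesmosomes, had counts of 25, 29 and 44 in siCONTROL, 100, 132 and 114 in siKEAP1, 18, 8 and 32 in siCCNF and 15, 19 and 2 in siKEAP1/siCCNF libraries. It was highest in every siKEAP1 library, and in FPKM both groups with siCCNF lay below siCONTROL. The log2 fold changes were 1.64 ± 0.37, -1.46 ± 0.43 and -1.85 ± 0.46 (edgeR adjusted p 0.00313, 0.0132 and 0.0053), and the call after siCCNF was lost without siCONTROL replicate 3 (-1.20).

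Col25a1, a transmembrane collagen that muscle needs for its innervation, had counts of 7, 13 and 7 in siCONTROL and 14, 12 and 28 in siKEAP1 libraries, which overlapped. With siCCNF the counts were 95, 72 and 84, and with both siRNAs 81, 98 and 48, each above every library without siCCNF. The log2 fold change was 2.53 ± 0.37 after siCCNF and 2.64 ± 0.37 with both (edgeR adjusted p 9.35e-05 and 7.52e-05).

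Col7a1, which forms the anchoring fibrils of skin, rose in all 3 depletions, from 0.349 ± 0.0521 FPKM to 1.02 ± 0.203, 0.72 ± 0.103 and 0.781 ± 0.111 FPKM (1.54, 1.04 and 1.15, all called by edgeR). Col10a1, the collagen of hypertrophic cartilage, had counts of 12, 7 and 2 in siCONTROL, 2, 7 and 11 in siKEAP1, 35, 21 and 37 in siCCNF and 51, 36 and 22 in siKEAP1/siCCNF libraries. The siCCNF-treated libraries were above the rest (1.45 ± 0.53 and 1.99 ± 0.52 against siCONTROL, edgeR adjusted p 0.0367 and 0.00716). Col10a1 lies within Nt5dc1 on the opposite strand, which had 6098 counts over all libraries against 243 for Col10a1, and the counting is not stated to use strand. The call after siCCNF was lost when any of 5 libraries was left out (siCONTROL replicate 2 or 3, or any siCCNF replicate; values from 1.01 to 1.54).

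The 10 collagens that were not tested had at most 9 counts in any library. Col28a1, Col4a4, Col19a1, Col26a1, Col9a2, Col6a5 and Col4a3 had between 12 and 41 counts in all 12 libraries together, and Col13a1 had 2 counts in a single library. Col9a1 and Col6a6 had no count in any library, which allows up to 3 counts per library. The partner chains of Col4a5 in the kidney network, Col4a3 and Col4a4, were thus near 0 here.

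The study asked whether loss of CCNF changes the response to loss of KEAP1, and this was tested as an interaction. It subtracts the log2 fold change of siKEAP1 against siCONTROL from that of siKEAP1/siCCNF against siCCNF, which share no library. Of the 34 collagens, 18 had an interaction (background 21.0%), 11 of them positive (background 10.6%) and 7 negative (background 10.5%). Fibrillar collagens held 7 positive and 1 negative, basement membrane collagens none and 2, and the others 4 and 4. The effect of siKEAP1 was larger in control than in CCNF-depleted cells for 27 of the 34 genes, whatever its direction, and had the same sign in both for 25. These counts were not made over all genes, so they are not read as particular to collagens. Of all genes tested, siKEAP1 called 40.6% in control cells and 5.19% in CCNF-depleted cells. The median effect on fibrillar collagens was -1.07 in control and -0.34 in CCNF-depleted cells.

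For the chains of type I collagen the interaction was 1.00 ± 0.09 for Col1a2 (edgeR adjusted p 1.38e-05) and 0.55 ± 0.12 for Col1a1 (adjusted p 0.00568). In CCNF-depleted cells siKEAP1 still lowered Col1a1 by 1.29 and Col1a2 by 0.76 on the log2 scale, both called. Col8a2 had the largest interaction (2.58 ± 0.16, adjusted p 1.03e-06), its fall being 3.37 in control cells and 0.80 in CCNF-depleted cells on the log2 scale. Next came Col23a1 (-2.37 ± 0.39, adjusted p 0.000911) and Col14a1 (2.35 ± 0.28, adjusted p 9.58e-05), for which siKEAP1/siCCNF against siCCNF gave -0.19 and -0.02, neither called. The rise of Col18a1 was 1.24 in control and 0.36 in CCNF-depleted cells (interaction -0.88 ± 0.10, adjusted p 6.8e-05). The type IV chains Col4a1 and Col4a2 had interactions of 0.08 ± 0.13 and -0.15 ± 0.12 (adjusted p 0.734 and 0.439). Keap1 mRNA was 12.6 ± 0.28 CPM in siKEAP1 and 24.1 ± 2.56 CPM in siKEAP1/siCCNF libraries (SD, n = 3), and the part of this difference in the interactions was not tested.

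**Figure D4:**
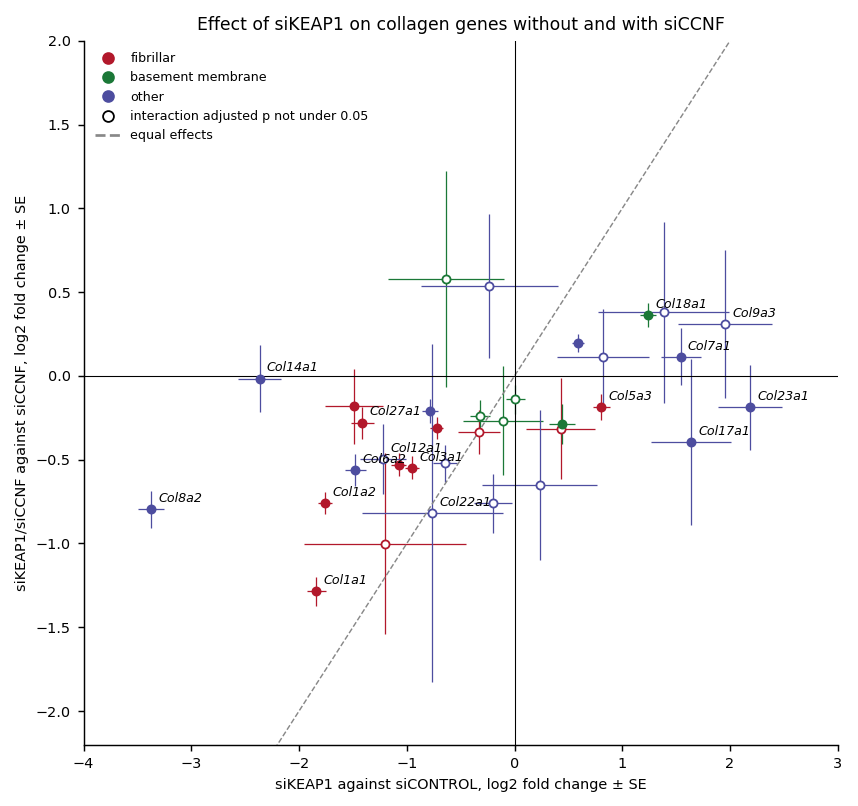
Log2 fold change ± SE after siKEAP1 in control cells (horizontal axis) and in CCNF-depleted cells (vertical axis) for the 34 tested collagens, coloured by class; filled symbols have an interaction with adjusted p under 0.05 and the dashed line marks equal effects. Most genes lie closer to 0 on the vertical than on the horizontal axis, Col8a2 at -3.37 and -0.80.

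Set directly against each other, siKEAP1/siCCNF and siCCNF cells differed in 10 of the 34 collagens (background 5.19%), 9 lower (background 2.19%) and 1 higher (background 3%) with both siRNAs, and 1 of them, Col1a1, by more than 2-fold (background 0.727%). The 9 lower genes were Col1a1, Col1a2, Col3a1, Col5a1, Col5a2, Col6a2, Col6a3, Col8a1 and Col8a2, with log2 fold changes from -1.29 to -0.31, and the higher gene was Col18a1 (0.36 ± 0.07, edgeR adjusted p 0.00993), whose call was lost without siCCNF replicate 1 (0.31) or siKEAP1/siCCNF replicate 2 (0.34). Against siKEAP1, 22 of the 34 differed (background 51.0%), 17 higher (background 24.1%) and 5 lower (background 26.9%), and 16 by more than 2-fold (background 14.5%). Col8a2 was 3.47 higher, Col24a1 2.79 and Col1a1 2.25 on the log2 scale. Col17a1 was lower by 3.49, Col22a1 by 2.42, Col5a3 by 1.60 and Col18a1 by 1.02. Col9a3 was the remaining gene called lower, also past 2-fold. Col22a1 and Col9a3 rest on few counts.

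The FPKM ratios of 5 pairs of chains were compared with siCONTROL, 4 pairs whose chains share a molecule and Col3a1 with Col1a1, whose molecules share fibrils. None of the 15 comparisons passed, and with 3 against 3 libraries no such test can fall below 0.1, so the ratios are given as a description. The ratio of Col1a1 to Col1a2 was 0.213 ± 0.0108 in siCONTROL, 0.202 ± 0.00721 in siKEAP1, 0.406 ± 0.019 in siCCNF and 0.282 ± 0.00508 in siKEAP1/siCCNF libraries (SD, n = 3). The siCCNF and siKEAP1/siCCNF ratios lay apart from control, with the smallest p that 3 against 3 libraries allow (exact permutation test, two-sided, p = 0.1, adjusted p 0.107 over 15 comparisons of ratios). For siKEAP1 the ratio overlapped that of control (exact p = 0.2). Col3a1 to Col1a1 was 10.6 ± 0.375 in siCONTROL, 19.5 ± 0.576 in siKEAP1, 4.43 ± 0.192 in siCCNF and 7.37 ± 0.283 in siKEAP1/siCCNF libraries. Col6a1 to Col6a2 was 3.5 ± 0.0702, 5.67 ± 0.0496, 2.38 ± 0.113 and 3.04 ± 0.21 in the same order. Col4a1 to Col4a2 lay between 1.25 and 1.89 as group means, and Col5a1 to Col5a2 between 0.637 and 0.904. The absolute ratios depend on the gene lengths used, and their fold differences between groups do not.

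The fibrillar genes also share an exon pattern that did not enter their choice. In GENCODE's annotation of GRCm38, 47.0% of the coding exons of the 11 fibrillar genes are 54 bases long, the length of whole glycine triplet repeats, and the share lies between 41.2% and 55.0% in each gene. Among basement membrane collagens it was 4.24%, among fibril-associated collagens with interrupted helices 25.2%, and among the 21822 other protein-coding genes 0.445%. Exons whose length is a multiple of 9 bases made up 82.4% of the fibrillar coding exons and 14.0% of those of other protein-coding genes. Col5a3, which moved opposite to the abundant fibrillar chains, has 31 such 54-base exons among 67, and Col1a2 has 24 among 52.

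Collagen chains are hydroxylated, folded and exported by dedicated enzymes and chaperones of the endoplasmic reticulum. Of 23 genes listed for folding and modification, 22 were tested. After siKEAP1, 16 were lower (background 20.2% of all genes tested) and 1 was higher (background 20.4%), with a median of -0.46. After siCCNF, 15 were higher (background 22.5%) and none lower (background 25.5%), with a median of 0.37. With both siRNAs 9 were higher (background 20.6%) and 5 lower (background 23.6%), with a median of 0.12. Fkbp14, a prolyl isomerase, showed the largest fall after siKEAP1, from 75.9 ± 1.81 to 29.4 ± 1.47 CPM (-1.37 ± 0.07, edgeR adjusted p 9.57e-09). Sec24d, a coat protein of the vesicles that carry procollagen, was the 1 gene that rose (0.40 ± 0.09, adjusted p 0.00203). Crtap, a member of the prolyl 3-hydroxylation complex, showed the largest rise after siCCNF, from 181 ± 1.46 to 334 ± 12.6 CPM (0.88 ± 0.06, adjusted p 2.11e-07).

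Of 13 genes for cleavage of procollagen and cross-linking of fibrils, 12 were tested. They held 3 higher and 4 lower after siKEAP1 (background called in either direction 40.6%), 6 and 2 after siCCNF (background 47.9%), and 5 and 2 with both siRNAs (background 44.2%). Adamts2, the main procollagen N-proteinase, fell from 82.7 ± 6.71 to 29.1 ± 1.36 CPM after siKEAP1 (-1.50 ± 0.07, edgeR adjusted p 5.77e-09) and less after siCCNF (-0.33 ± 0.07, adjusted p 0.00132). Adamts3, a related proteinase, rose from 2.66 ± 0.847 to 19.4 ± 3.48 CPM after siCCNF (2.87 ± 0.26, adjusted p 1.54e-06). Tll1, a low-level C-proteinase, rose from 0.498 ± 0.18 to 4.09 ± 0.46 CPM after siKEAP1 (3.05 ± 0.25, adjusted p 6.74e-07).

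Among proteoglycans and glycoproteins that sit on fibrils, 13 of 15 were tested. After siKEAP1, 10 were lower (background 20.2%) and 1 was higher (background 20.4%), with a median of -1.09. After siCCNF 6 were higher (background 22.5%) and 5 lower (background 25.5%), with a median of 0.22, and with both 2 were higher (background 20.6%) and 6 lower (background 23.6%), with a median of -0.08. Fmod, a proteoglycan that steers fibril growth, fell from 44.5 ± 2.83 to 2.48 ± 0.204 CPM after siKEAP1 (-4.16 ± 0.27, edgeR adjusted p 9.75e-08), and Tnxb rose from 1.44 ± 0.694 to 10.6 ± 0.566 CPM (2.89 ± 0.26, adjusted p 1.52e-06). After siCCNF, Dcn rose from 7.15 ± 1.32 to 28.7 ± 0.129 CPM (2.01 ± 0.13, adjusted p 9.11e-08) and Aspn fell from 28.6 ± 3.42 to 4.84 ± 0.801 CPM (-2.56 ± 0.18, adjusted p 1.7e-07). Aspn was also the largest fall with both siRNAs (-3.25 ± 0.19, adjusted p 5.88e-08).

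Laminins, nidogens and other partners of type IV collagen held 7 higher (background 20.4%) and 2 lower (background 20.2%) of 15 tested after siKEAP1, with a median of 0.45. After siCCNF 10 were higher (background 22.5%) and 1 was lower (background 25.5%), with a median of 0.58, and with both 9 were higher (background 20.6%) and 1 was lower (background 23.6%), with a median of 0.68. Nid2, which bridges laminin and type IV collagen, fell from 389 ± 52.6 to 80.6 ± 6.5 CPM after siKEAP1 (-2.27 ± 0.11, edgeR adjusted p 6.47e-09). Nid1, the other nidogen on the list, went the opposite way, from 454 ± 153 CPM in siCONTROL to 1882 ± 27.6 CPM in siKEAP1 libraries. Lama3 rose after siKEAP1 at low level, from 0.277 ± 0.0736 to 1.65 ± 0.421 CPM (2.56 ± 0.41, adjusted p 0.000239). Lama4 rose from 2.08 ± 0.556 to 20.5 ± 1.73 CPM after siCCNF (3.31 ± 0.18, adjusted p 2.27e-08), and Lamb3 fell from 12.9 ± 2.01 to 3.9 ± 0.395 CPM (-1.72 ± 0.14, adjusted p 7.53e-07).

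Collagen receptors held 2 higher and 4 lower of 11 tested after siKEAP1 (background called in either direction 40.6%), 5 and 2 after siCCNF (background 47.9%), and 4 and 4 with both (background 44.2%). Itga11, the integrin subunit that binds fibrillar collagen, was 12.6 ± 2.93 CPM in siCONTROL, 3.82 ± 0.952 CPM in siKEAP1, 50.1 ± 4.35 CPM in siCCNF and 27.2 ± 1.68 CPM in siKEAP1/siCCNF cells (-1.72, 1.99 and 1.11, all called by edgeR). Itga10 rose with both siRNAs (1.72 ± 0.24, edgeR adjusted p 6.97e-05). Cspg4, a proteoglycan that binds type VI collagen, fell after siCCNF from 52.3 ± 11.9 to 21.8 ± 2.05 CPM (-1.26 ± 0.14, adjusted p 6.29e-06). Itga2 was called higher after siKEAP1 but stood at 0.047 ± 0.0482 CPM in siCONTROL and 0.479 ± 0.0368 CPM in siKEAP1 libraries, so no fold is given.

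**Figure D5:**
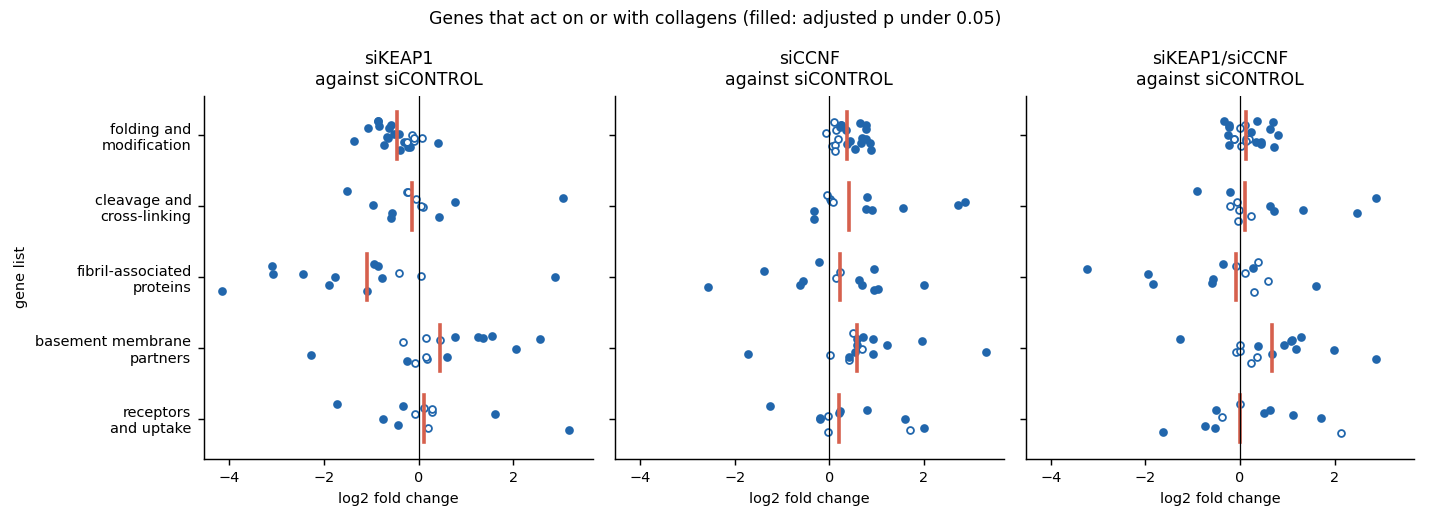
Log2 fold change (horizontal axes) of the tested genes of 5 lists of proteins that act on or with collagens, in each depletion against siCONTROL, by edgeR; filled points have an adjusted p under 0.05, vertical bars are list medians, and points are spread vertically for legibility. Folding and modification genes lie mostly left of 0 after siKEAP1 (median -0.46) and right of 0 after siCCNF (median 0.37).

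Markers of the cells themselves also changed between groups. The 8 myoblast markers were all expressed, their summed level ranging from 1727 to 1871 CPM in siCONTROL, 1130.0 to 1163 in siKEAP1, 915 to 928 in siCCNF and 865 to 914 CPM in siKEAP1/siCCNF libraries. Of 20 muscle differentiation markers, 16 were tested, and 14 were lower after siKEAP1 (background 20.2%), 13 after siCCNF (background 25.5%) and 14 with both siRNAs (background 23.6%). Tnnt2, a troponin T, went the other way after siKEAP1, from 22.3 ± 8.65 to 54.8 ± 1.59 CPM (1.30 ± 0.19, edgeR adjusted p 0.000136). The 20 differentiation markers summed to 359 to 585 CPM in siCONTROL and 176 to 192 CPM in siKEAP1 libraries. The sum was 87.1 to 110.1 CPM in siCCNF and 71.8 to 79.7 CPM in siKEAP1/siCCNF libraries. Chrna1 was its largest member, with means of 270, 117, 42.8 and 42.2 CPM in these groups in that order. Median log2 fold changes of the tested markers ranked the depletions otherwise, with -3.19 after siKEAP1, -1.41 after siCCNF and -2.71 with both siRNAs. Of the fibroblast markers, Tcf21, Thy1 and Lum were at or near 0 and the summed level of all 9, mostly Ly6a and Cd34, was 704 to 850.0 CPM in siCONTROL, 1377 to 1468 in siKEAP1, 685 to 753 in siCCNF and 854 to 931 CPM in siKEAP1/siCCNF libraries. Its members did not move together. After siKEAP1 Ly6a and Cd34 were higher (1.24 and 0.43) while Pdgfra, Dpt and Dcn were lower (-0.43, -1.62 and -1.09), all called by edgeR among 6 tested (background called in either direction 40.6%). After siCCNF, where the sum was not higher, Pdgfra rose from 55 ± 13.1 to 139 ± 2.41 CPM and Dcn from 7.15 ± 1.32 to 28.7 ± 0.129 CPM, and Ly6a and Cd34 were lower (-0.60 and -0.25, all 4 called, background 47.9%). The part of these changes in the collagen results was not tested.

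Of the markers of other cell types, some were near 0 and some were expressed. Among chondrocyte markers Acan, Matn1 and Hapln1 had at most 5 counts in any library. Sox9 stood at 83.6 ± 10.6 CPM in siCONTROL and was called in no comparison with it. After siKEAP1, Matn3 fell from 0.779 ± 0.139 to 0.143 ± 0.088 CPM and Sox5 rose from 4.3 ± 1.04 to 6.39 ± 0.417 CPM. Both were called by edgeR, among 4 tested (background called in either direction 40.6%). The sum of 8 was 71.0 to 100.3 CPM over all libraries. Among osteoblast markers Ibsp had no count and Sp7 at most 13. Runx2 stood at 74.1 ± 10.7 CPM in siCONTROL and 92.1 ± 1.7 CPM in siCCNF libraries (0.31, called). Alpl stood at 0.147 ± 0.209 CPM in siCONTROL, 0.607 ± 0.0954 in siKEAP1, 2.28 ± 0.597 in siCCNF and 2.31 ± 0.143 CPM in siKEAP1/siCCNF libraries. It was called higher after siCCNF (background 22.5%) and with both siRNAs (background 20.6%). Its siCONTROL level was near 0, so no fold is given. The sum of 6 was 78.8 to 101.7 CPM. Dmp1 of the same list fell from 19.7 ± 2.32 CPM in siCONTROL to 12.8 ± 1.16 CPM with siKEAP1, 1.23 ± 0.488 CPM with siCCNF and 1.39 ± 0.0885 CPM with both (-0.62, -3.96 and -3.83, all called by edgeR).

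Adipocyte markers Adipoq, Plin1 and Lep had at most 2 counts. Pparg rose from 9.3 ± 2.31 to 30 ± 2.41 CPM after siKEAP1 (1.69, called), Fabp4 from 0.0832 ± 0.0338 to 2.64 ± 0.607 CPM (1 to 2 counts per library in siCONTROL, so no fold is given), and Cebpa fell from 48.9 ± 0.335 to 19.7 ± 3.41 CPM after siCCNF (-1.31, called), the sum of 6 lying between 26.2 and 84.6 CPM. The 6 endothelial markers summed to at most 2.04 CPM. Of the macrophage markers Ptprc, Adgre1 and Itgam had at most 3 counts. The sum of 6, mostly Cd14, was 11.2 to 13.9 CPM in siCONTROL and 27.6 to 33.2 CPM in siKEAP1 libraries. After siKEAP1, Cd68 rose from 0.997 ± 0.343 to 7.34 ± 2.38 CPM and Cd14 from 10.8 ± 1.57 to 22.4 ± 0.397 CPM. Both were called by edgeR, among 3 tested (background called in either direction 40.6%). The part of these markers in the collagen results was not tested.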

How the data were processed

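RNA of 12 C2C12 libraries, 3 in each of 4 siRNA groups, was prepared, sequenced and processed for the authors by a commercial provider. Per the labels, the processing notes name HISAT2 and the build GRCm39, yet the coordinates of all 44 collagen genes in the deposited table equal those of GENCODE vM21 on GRCm38, which was used here. The counting tool, its annotation release and its strand setting are not given in the sources used here. The authors deposited raw counts of reads per gene and FPKM values, which equal the counts divided by a gene length and scaled per library. The table also holds the authors' fold changes and p-values, which were not used.

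Counts were tested with edgeR 4.0.16 in R 4.3.3 (filterByExpr, TMM, quasi-likelihood test, 4 group means fitted to all 12 libraries, Benjamini-Hochberg adjustment over 15122 genes). CPM values were scaled by TMM. Calls used an adjusted p under 0.05, and the second rule a difference over 2-fold. Totals of 18464209 to 37743198 counts set the precision, and floors (3 counts) cover counting error only. The 95% intervals run 1.96 SE to each side of the log2 fold change. This SE comes from the edgeR fit and includes the spread between libraries. Classes and lists are described by counts and medians, with no test. Ratios of chains were compared by exact permutation tests. Genes named with values in every library were the 10 with the highest mean FPKM, the 3 largest rises and falls in each comparison with siCONTROL, and the 3 largest interactions. Other collagens are named with their status, and of each pathway list its largest rise and fall, with Nid1 named beside Nid2. The members, classes and lists were chosen with earlier results of these data known. Alternatives were DESeq2 1.42.0, limma 3.58.1 on log2(FPKM + 1) and log2(FPKM + 0.1), total library sizes, other count filters (none, or at least 10 counts in every library), a replicate block, fits of the compared groups only, removal of a gene length trend, and leaving out each library. Alternatives chosen after seeing the data set chain ratios and sums per transcript length and counted well-measured members apart. In simulated data for siKEAP1 against siCONTROL with 14722 genes tested, edgeR called 169 of 198 changed genes and 5 unchanged ones. The simulation gave all genes the same spread, changed few genes and held no gene length trend. It checks that the code runs as intended and does not measure the error rate in the real libraries. Promoter windows came from RefSeq on GRCm38.p6.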

Additional observations from a re-analysis of the deposited data

Results flagged for a closer look

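The effect of siKEAP1 differed between control and CCNF-depleted cells for 18 collagens, by the interaction term of the edgeR fit (adjusted p under 0.05, against 21.0% of all genes tested). The interaction is the log2 fold change after siKEAP1 in CCNF-depleted cells minus that in control cells. It was positive for fibrillar Col3a1 (0.40), Col5a2 (0.41), Col5a1 (0.54), Col1a1 (0.55), Col1a2 (1.00), Col27a1 (1.13) and Col11a2 (1.31), and for Col6a1 (0.57), Col6a2 (0.92), Col14a1 (2.35) and Col8a2 (2.58), all of which were lower after siKEAP1 in control cells. It was negative for Col16a1 (-0.39), Col4a5 (-0.73), Col18a1 (-0.88), Col5a3 (-0.99), Col7a1 (-1.43), Col17a1 (-2.03) and Col23a1 (-2.37), all of which were higher after siKEAP1 in control cells. In these 18 genes the interaction thus had the opposite sign to the effect in control cells, from which it is computed. The call for Col17a1 was lost when any of siCONTROL replicate 2, the 3 siKEAP1 replicates, siCCNF replicate 1 or siCCNF replicate 3 was left out (-2.11 to -1.58). It was also lost with a replicate block (-2.02). Single collagen values were not screened for outliers within groups of 3 libraries.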

How the results depend on the processing

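Of 2449 values of named collagens under the alternatives, 2372 kept their direction and side of the threshold, 44 became called, 33 lost their call and none turned direction with a call. The count of collagens past 2-fold changed by more than 1.5 times with limma on log2(FPKM + 1), to 8 from 14 after siKEAP1, 6 from 13 after siCCNF, 2 from 9 with both siRNAs and 8 from 16 for siKEAP1/siCCNF against siKEAP1, since the pseudocount shrinks low genes. It was 8 after siCCNF with log2(FPKM + 0.1). When 10 counts in every library were required, which tests fewer genes, it was 8 after siCCNF and 5 with both siRNAs. The share of all genes past 2-fold under these alternatives is not given. These counts are therefore set only against those of the main fit.

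Class medians against siCONTROL moved as follows, the cause not being tested. For fibrillar collagens after siKEAP1 the median (-1.07) was -0.64 and -0.94 with limma on log2(FPKM + 1) and log2(FPKM + 0.1), -1.17 with the gene length trend removed, and -1.08 to -0.94 when leaving out each library. After siCCNF (0.73) it was 0.44 and 0.63 with the 2 pseudocounts. With both siRNAs (0.15) it was 0.30 with at least 10 counts, 0.017 with log2(FPKM + 1), 0.30 without both deviating libraries, 0.28 with the compared groups only and 0.034 to 0.36 when leaving out each library. For basement membrane collagens it was 0.21 with no filter after siKEAP1 (-0.05). After siCCNF (0.72) it was 0.89 with no filter, 0.86 with at least 10 counts, 0.44 and 0.57 with the 2 pseudocounts, and 0.98 with types XV and XVIII counted among the others. With both siRNAs (0.51) it was 0.33, 0.72 and 0.79 with no filter, with at least 10 counts and with types XV and XVIII moved. For other collagens after siKEAP1 (-0.20) it was -0.70 with at least 10 counts, 0.30 without both deviating libraries and -0.23 to 0.30 when leaving out each library, and after siCCNF (0.61) it was 0.21 with log2(FPKM + 1).

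With the replicate number as a block, 22, 26 and 21 collagens were called after siKEAP1, siCCNF and both siRNAs, and 17 for the interaction. No share of all genes under this fit is given beside these counts, so they are not read as particular to collagens. Deviations of same-numbered libraries had correlations from -0.268 to 0.204, with 4 of 18 pairs over 0.1. A pair with different numbers, siCONTROL replicate 1 and siKEAP1/siCCNF replicate 3, had 0.390. Whether the numbers pair the libraries cannot be told from these values. As a share of counts, other collagens summed to 133% of control after siCCNF and 96.7% with both siRNAs. Collagens under 10 counts in some library are limited by depth.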

Other observations

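Several collagen genes are neighbours in the genome, and neighbours did not always move alike. Col3a1 and Col5a2 lie tail to tail on chromosome 1, 24614 bases apart, and both fell after siKEAP1 (-0.95 and -0.72) and rose after siCCNF (0.44 and 0.73). With both siRNAs Col5a2 was called higher than siCONTROL (0.42 ± 0.06, edgeR adjusted p 0.000164), and Col3a1 was not (-0.11 ± 0.07, adjusted p 0.223). Col6a2 and Col6a1 lie 85161 bases apart on the same strand of chromosome 10. Col6a1 was lower after siCCNF (-0.60 ± 0.07, adjusted p 1.81e-05), and Col6a2 had a value of -0.04 ± 0.10 (adjusted p 0.761). Col4a6 and Col4a5 lie head to head on chromosome X, 1308 bases apart, and differed in level, with 4.75 to 17.0 FPKM per library for Col4a5 and 0.0658 to 0.182 FPKM for Col4a6. Col4a4 and Col4a3, head to head on chromosome 1 with 71 bases between them, had at most 9 and 4 counts in any library.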
